A study of Thermothelomyces thermophilus ATCC 42464 with 6 samples.

Results

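Myceliophthora thermophila (Thermothelomyces thermophilus) is a filamentous fungus that thrives in heat and lives on decaying plant matter. The genes described here are its abundant transcripts that were moderately lower in a strain without the transcription factor gene Mtclr-2. They were chosen from the measured values: a gene belonged to the set when its mean over the 3 wild-type libraries was at least 200 FPKM and the ratio of that mean to the mean of the 3 deletion libraries was at least 2 and under 4. FPKM counts the fragments of a gene per kilobase of transcript, scaled to the mapped fragments of the library in M (mega). MYCTH_66729, at 213.1 ± 7.09 FPKM in the WT and 80.5 ± 2.96 without Mtclr-2 (SD, n = 3), met these limits but was left out by the rule. That gave 149 genes of the 2228 in the deposited table. Because the choice used both strains, the difference between the strains is a description of these genes. Test calls on them appear below, but no support for the difference is drawn from those calls.

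The labels give 2 groups of 3 libraries, WT and MtClr-2 deletion. Both strains were pre-grown in liquid glucose medium, washed, and moved to medium with 2% (w/v) Avicel, a microcrystalline cellulose, for 48 h, so both had the same change of carbon source. The deletion strain differs from the wild type, per the labels, in the loss of Mtclr-2. The study asked which genes MtCLR-2 regulates on cellulose. Values for Mtclr-2 itself were not analysed here, so the deletion could not be checked from its own transcript.

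In the fungus Neurospora crassa, CLR-2 is a zinc binuclear cluster transcription factor that is required for the induction of cellulase genes when the fungus meets cellulose. It acts downstream of a related regulator, CLR-1. Fungi that degrade cellulose devote much of their transcript pool to secreted enzymes and to the machinery that folds and exports them. All 149 genes matched NCBI's RefSeq gene table, where each has a locus tag and no other symbol. They are therefore named by locus tag, and no function is stated for any of them.

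The deposited table holds no gene whose strain means were less than 2-fold apart; without Mtclr-2, 1323 of its genes were lower and 905 were higher. Depth is not given with FPKM. A rough estimate from the lowest values, using annotated gene lengths, came to 13.91 to 16.81 M fragments for 5 libraries. In deletion replicate 2 the best step gave 6.57 M and rested on 11 of 46 low values. The other 5 rested on few values as well. These ran from 12 of 53 in deletion replicate 1 to 35 of 94 in wild-type replicate 1, so every estimate is uncertain. With these estimates the median gene of the set had 8303 fragments in a wild-type library and 3269 in a deletion library, and the lowest value rested on 210. At a given depth, the true number is lower where a gene has introns. The depth estimate used annotated lengths too, so the direction of the combined error is not known. Counting error alone would then give a median relative error of 1.11% for wild-type libraries and 2.00% for deletion libraries.

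Together the 149 genes held a large part of the FPKM in the table. Their summed level was 87180, 87646 and 88825 FPKM in wild-type replicates 1 to 3, and 35365, 35362 and 36092 FPKM in deletion replicates 1 to 3. Every wild-type library thus lay far above every deletion library, and within a strain the highest sum belonged to replicate 3. The means were 87884 ± 848 and 35607 ± 421 FPKM (SD, n = 3), a 2.47-fold lower sum. As a share of all FPKM in the table, the set went from 43.3% ± 0.195 to 17.96% ± 0.040 with the loss of Mtclr-2. The 149 genes are 11.3% of the 1323 listed genes that were lower. They carried 55.9% of the wild-type FPKM of those genes and 52.9% of the FPKM that those genes lost. The rule kept only genes at 200 FPKM or more in the wild type, so shares of FPKM above the share of genes follow from the choice. The table is only part of the transcriptome, so these are shares of the listed genes and not of the cell's RNA. In RNA from whole mycelium, fewer cells that express a gene and less of its RNA per cell cannot be told apart.

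In all 149 genes the lowest wild-type library lay above the highest deletion library, as it did in 59.1% of the 2228 listed genes. All 149 were also lower by limma on log2(FPKM + 1) at an adjusted p under 0.05, beside 60.7% of the 2106 genes tested. The rule used this contrast, so nothing is read from either count. The median log2 change was -1.27 for the 149 genes and -0.99 for all genes tested. If the libraries are instead scaled by median-of-ratios factors, which take the median listed gene as unchanged, the median of all genes tested moves by 0.94 to -0.05 and that of the 149 genes becomes -0.26. Under that scaling 4 of the 149 genes, MYCTH_2299739, MYCTH_2311966, MYCTH_2306723 and MYCTH_2095534, turn to slightly higher in the deletion strain. Then 114 of the 149 pass the test as lower, beside 702 of the 2122 genes tested. The table holds no gene under 2-fold apart and 59.4% of its genes were lower, so its median gene is no unchanged reference. This scaling therefore cannot decide which values are right. Every lower level reported below is on FPKM as deposited and depends on that scaling.

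**Figure D1:**
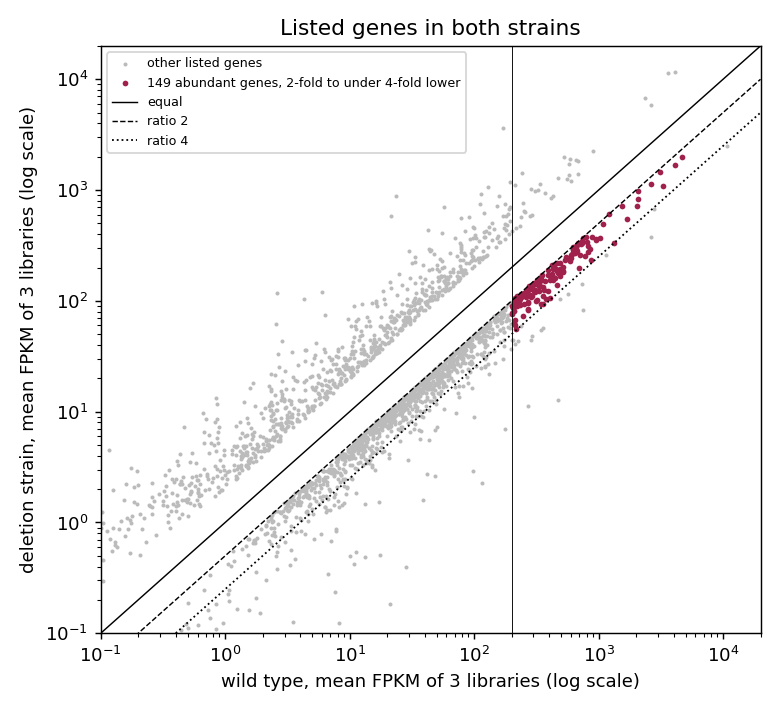
Mean FPKM in the wild type (horizontal, log scale) against the deletion strain (vertical, log scale), 1 point per listed gene; genes at or under 0.1 FPKM in either strain are outside the axes. The 149 genes of the set lie right of the line at 200 FPKM and between the lines for ratios of 2 and 4; no listed gene lies between the line for a ratio of 2 and the line of equality.

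The choice by wild-type level favours genes that were lower. Of the 202 listed genes at 200 FPKM or more in the wild type, 169 (83.7%) were lower in the deletion strain. Of the 187 genes at 200 FPKM or more in the deletion strain, only 54 (28.9%) were. Among all listed genes the share was 59.4%. The 149 genes therefore describe one corner of the table, bounded below by the 2-fold limit of the table itself and above by 19 genes past the same level that were lower by 4-fold or more.

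Levels within the set covered a wide range. Wild-type means ran from 201.3 to 4686 FPKM with a median of 391.5, and deletion means from 56.3 to 1989 FPKM with a median of 152.9. At 1000 FPKM or more there were 14 genes in the WT and 5 in the deletion strain. Of the 149 genes, 50 were still at 200 FPKM or more without Mtclr-2, and 25 were under 100 FPKM. The 12 most abundant genes made up 33.9% of the summed level of the set in either strain. Of the 12 highest genes in the wild type, 11 were also among the 12 highest in the deletion strain, which the narrow window of ratios largely fixes.

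The most abundant gene, MYCTH_2304256, was at 4664, 4711 and 4683 FPKM in the wild-type libraries and at 1959, 2006 and 2002 FPKM in the deletion libraries, a ratio of means of 2.36. MYCTH_2315910 followed with 4150, 4165 and 4133 FPKM against 1650, 1740 and 1645 FPKM, a ratio of 2.47. In both genes the libraries of a strain lay close together and far from those of the other strain. MYCTH_106819 and MYCTH_71850 were close in the wild type, at 3270 ± 23.6 and 3130 ± 14.9 FPKM, and parted in the deletion strain. MYCTH_106819 went to 1072, 1118 and 1055 FPKM, a ratio of 3.02, while MYCTH_71850 went to 1443, 1469 and 1436 FPKM, a ratio of 2.16. Their order was thus reversed between the strains, in each of the 3 libraries of either strain.

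A group of 3 genes stood close together in the wild type, between 2023 and 2081 FPKM. MYCTH_2296904 was at 2076, 2082 and 2084 FPKM there and at 1016, 943 and 1012 FPKM in the deletion strain. MYCTH_2301829 was at 2074, 2084 and 2054 FPKM and then at 805, 818 and 880 FPKM. MYCTH_2309542 was at 2031, 2023 and 2014 FPKM and then at 702, 708 and 738 FPKM. These 3 genes were 2.10-fold, 2.48-fold and 2.83-fold lower, so that genes of nearly equal level in the wild type were spread over 715.8 to 990.2 FPKM in the deletion strain, with no overlap between the 3 genes there.

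Of the remaining 5 of the 12, MYCTH_2301830 was at 2655, 2608 and 2618 FPKM in the wild type and at 1155, 1156 and 1095 FPKM in the deletion strain, 2.31-fold lower. MYCTH_2301963, at 1636, 1669 and 1760 FPKM and then 546, 512 and 582 FPKM, was 3.09-fold lower and had the widest spread in the deletion strain of the 12, with a coefficient of variation of 6.36%. MYCTH_2308456, at 1530, 1562 and 1540 FPKM and then 720, 734 and 723 FPKM, was 2.13-fold lower. In all 3 genes the libraries of the strains were far apart. MYCTH_2310610 and MYCTH_2299739 stood at the 2 ends of the range of ratios and are described with it.

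**Figure D2:**
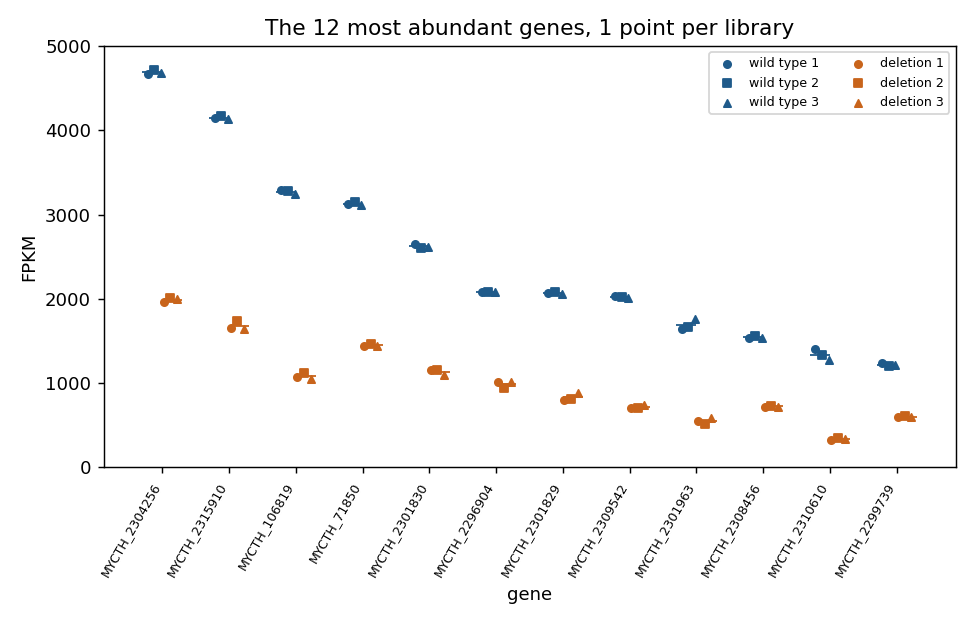
FPKM of the 12 most abundant genes of the set, 1 point per library, with wild-type libraries in blue and deletion libraries in orange and a short line at each mean. MYCTH_106819 lies above MYCTH_71850 in the wild type (3270 against 3130 FPKM) and below it in the deletion strain (1082 against 1449 FPKM).

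Most of the 149 genes were lower by little more than the lower limit. The median ratio of means was 2.42, with quartiles at 2.19 and 2.69. Of all 149 genes, 88 had a ratio under 2.5, 39 a ratio from 2.5 to under 3, 14 from 3 to under 3.5, and 8 from 3.5 to under 4. The size of the decrease did not go with the level. The median ratio was 2.31 in the 49 genes at 200 to 300 FPKM, 2.502 in the 50 genes at 300 to 500 FPKM, 2.36 in the 36 genes at 500 to 1000 FPKM and 2.41 in the 14 genes above that. Across the 149 genes, which share their libraries and were cut to a window of ratios, Spearman's rho between wild-type mean and ratio was 0.078.

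Nearest to the upper limit was MYCTH_2310610, with 1401, 1331 and 1280 FPKM in the wild type and 321, 351 and 335 FPKM in the deletion strain. Its ratio of means was 3.98, and single pairs of a wild-type and a deletion library gave 3.64 to 4.36. The next genes were MYCTH_2065222, at 216.0 ± 21.5 and 56.3 ± 8.60 FPKM (3.84), and MYCTH_2297550, at 355.3 ± 8.19 and 92.8 ± 2.86 FPKM (3.83). These were followed by MYCTH_2308148, at 409.0 ± 7.69 and 107.2 ± 8.76 FPKM (3.81). MYCTH_110717 was at 345.9 ± 0.80 and 92.9 ± 3.60 FPKM and MYCTH_2303249 at 867.4 ± 4.81 and 233.5 ± 17.2 FPKM, both 3.72-fold lower. Among these 6 genes the ratios do not separate: the range over library pairs was 3.01 to 4.75 for MYCTH_2065222 and so took in the mean ratio of each of the others. Just outside the limit stood MYCTH_2138690 at a ratio of 4.01, MYCTH_2308313 at 4.07 and MYCTH_2310279 at 4.27.

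Nearest to the lower limit was MYCTH_2311966, with 720, 734 and 775 FPKM in the wild type and 359, 357 and 397 FPKM in the deletion strain, a ratio of 2.00. MYCTH_2299739, far more abundant, was at 1245, 1203 and 1214 FPKM and then at 603, 609 and 599 FPKM, a ratio of 2.02. Its libraries differed little, and its 9 library pairs gave 1.98 to 2.08. MYCTH_2306723 and MYCTH_2095534 had ratios of 2.01 and 2.02, from 213.4 ± 2.49 and 422.6 ± 18.3 FPKM in the wild type. MYCTH_2301985 and MYCTH_2303413 both had a ratio of 2.03, from 223.0 ± 9.33 and 275.0 ± 12.5 FPKM. No listed gene at this level had a ratio just under 2, since the table stops there. At the limit on level, MYCTH_2306840 was just inside at 201.3 ± 13.5 FPKM, and MYCTH_2310703 just outside at 199.9 ± 6.78 FPKM with a ratio of 2.07, a gap smaller than the SD of either gene.

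**Figure D3:**
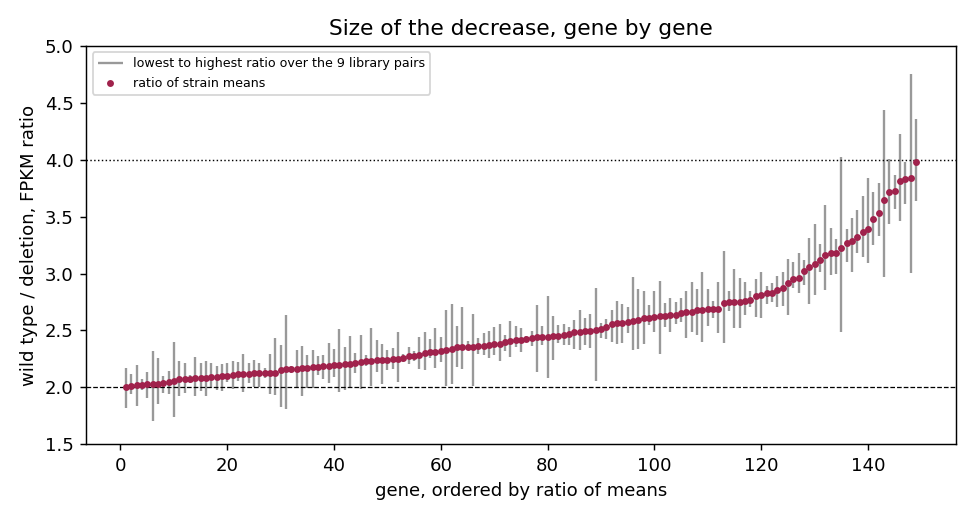
Ratio of wild-type to deletion FPKM for each of the 149 genes in order of the ratio of means (points), with the lowest and highest ratio over the 9 pairs of libraries (bars). The points climb slowly from 2.00 to about 3 and steeply above it; the bars reach from 1.70 to 4.75.

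The ratios varied with the libraries that were paired. Over single pairs of a wild-type and a deletion library they ran from 1.70 (MYCTH_2303413) to 4.75 (MYCTH_2065222). In 112 of the 149 genes every one of the 9 pairs gave a ratio of at least 2 and under 4. In 31 genes at least 1 pair was under 2, and in 6 genes, MYCTH_2310610, MYCTH_2303249, MYCTH_2308148, MYCTH_65475, MYCTH_2119667 and MYCTH_2065222, at least 1 pair reached 4. The same rule was then applied to 2 libraries per strain and the genes so chosen were read in the pair of libraries left out. The 9 ways of doing so chose 137 to 150 genes, of which 136 to 148 belonged to the 149. In the left-out pair every chosen gene was lower in the deletion strain, and 89.1% to 97.9% had a ratio from 2 to under 4. The table had itself been selected on all 6 libraries, so this describes the agreement of the libraries and is no test of the difference.

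The spread between libraries of one strain was not used by the rule. Across the 149 genes the coefficient of variation had a median of 2.66% for wild-type and 3.65% for deletion libraries, and 97 of the 149 genes (65.1%) varied more in the deletion strain. That share was 84.2% in the 19 abundant genes lower by 4-fold or more and 66.7% in the 33 abundant genes that were higher in the deletion strain. It was 69.9% in the 1010 less abundant genes lower by the same 2-fold to under 4-fold. In the 192 listed genes outside the set with a wild-type mean of 100 to 300 FPKM it was 69.3%. In the 150 listed genes outside the set with a deletion mean of 100 to 300 FPKM it was 38.7%. The median coefficient of variation of these 150 was 3.40% for wild-type and 2.68% for deletion libraries. Their median level was 57.2 FPKM in the wild type and 159.3 FPKM in the deletion strain, so they differ from the set in direction. No test of these differences was made. In the wild type no gene of the set exceeded 10%, the highest being MYCTH_2065222 at 9.97%. In the deletion strain 11 genes (7.38%) did. Of the same 150 genes outside the set, 3 exceeded 10% there (2.00%), and the difference between the 2 shares was not tested. The 150 genes are no close match, since 25 genes of the set were under 100 FPKM in the deletion strain. Wide spread in that strain was not particular to the set. Its median was 8.36% in the 1010 less abundant lower genes. Its highest value was 19.6% in the 19 genes lower by 4-fold or more and 20.2% in the 33 higher genes. Both strains together, 101 of the 149 genes stayed under 5%.

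Each of the 11 genes with the widest spread in the deletion strain was highest in deletion replicate 3. So were the 3 that exceeded 10% among the 150 genes outside the set at 100 to 300 FPKM in the deletion strain. Other genes outside the set were not examined for this. MYCTH_2119667 varied most, at 75.4, 70.5 and 105.2 FPKM in the deletion libraries, a coefficient of variation of 22.4%, and at 264.0, 261.7 and 283.8 FPKM in the wild type. MYCTH_2307599 was at 104.5, 100.9 and 134.8 FPKM in the deletion libraries and at 284.5, 277.2 and 289.5 FPKM in the wild type. MYCTH_65475 was at 99.9, 89.9 and 123.2 FPKM and at 376.3, 365.8 and 399.2 FPKM. In these 3 genes deletion replicates 1 and 2 lay nearer to each other than to replicate 3, though in MYCTH_65475 they were apart as well. Replicate 3 was highest in both strains in all 3 genes.

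The rest of the 11, chosen after their values were seen, were MYCTH_2316558, MYCTH_87600, MYCTH_2039818, MYCTH_2303413, MYCTH_79440, MYCTH_2314800, MYCTH_2107102 and MYCTH_2065222. In some of them deletion replicates 1 and 2 were also apart, as in MYCTH_2107102 at 108.7, 93.1 and 122.8 FPKM and MYCTH_2316558 at 141.0, 122.4 and 161.9 FPKM. All 11 were highest in wild-type replicate 3 as well, although their spread there was smaller, 0.834% to 9.97%. Deletion replicate 3 was 1.18-fold to 1.44-fold above the mean of deletion replicates 1 and 2 in these genes, against a median of 1.02-fold over the whole set. Their wild-type means, 216.0 to 380.4 FPKM, were all below the median of the set. Across the set, 87 of the 149 genes were highest in wild-type replicate 3, 76 in deletion replicate 3 and 51 in both. The same counts were not made for listed genes outside the set, so no trait of the set is read from them. Whether the replicate number marks a shared batch or culture is not stated in the labels, and what sets replicate 3 apart was not tested. The FPKM summed over the whole table was also highest in replicate 3 of each strain, at 204264 against 202298 and 202524 FPKM in the wild type and at 200543 against 197362 and 196829 FPKM in the deletion strain. Without replicate 3 the median coefficient of variation of the set was 2.498% in the deletion strain and 1.52% in the wild type. It was 3.61% and 2.05% without replicate 1, and 3.15% and 2.95% without replicate 2. The ratio of MYCTH_65475 went from 3.65 to 4.01 and that of MYCTH_2065222 from 3.84 to 4.21 when deletion replicate 3 was left out, past the upper limit, while the other 9 stayed within it.

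**Figure D4:**
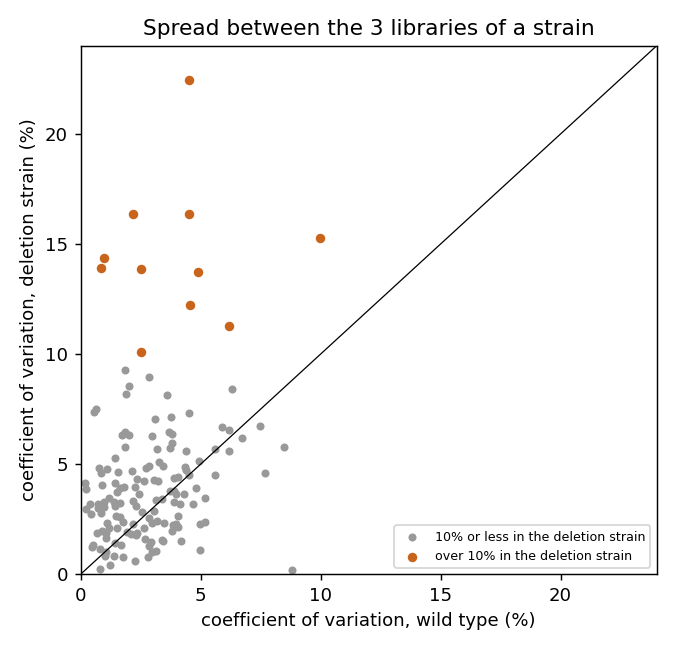
Coefficient of variation over the 3 libraries of a strain for each of the 149 genes, wild type (horizontal, %) against deletion strain (vertical, %); the line marks equal spread. The 11 genes in orange exceed 10% in the deletion strain, up to 22.4%, and stay at or under 9.97% in the wild type.

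Position in the genome was likewise not used by the rule. In the RefSeq gene order, 8 pairs of the 149 genes were direct neighbours, with 16 genes in all, and the annotated ends overlapped in none of these pairs. The most abundant pair was MYCTH_2301829 and MYCTH_2301830, described above, which ranked 7 and 5 by wild-type mean and were 2.48-fold and 2.31-fold lower. MYCTH_83980, at 846.9 ± 7.62 and 296.4 ± 12.1 FPKM, stood beside MYCTH_2308236, at 708.5 ± 39.6 and 257.5 ± 11.6 FPKM, with ratios of 2.86 and 2.75. MYCTH_2305468, at 393.3 ± 3.23 and 172.6 ± 1.98 FPKM, stood beside MYCTH_2315383, at 1095 ± 22.9 and 494.6 ± 8.94 FPKM, with ratios of 2.28 and 2.21. In these pairs the 2 genes differed in level, and their ratios overlapped over the pairs of libraries.

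The gene nearest to the lower limit, MYCTH_2311966, had as its neighbour MYCTH_2311968, at 627.4 ± 9.48 and 306.0 ± 11.4 FPKM, and the pair had ratios of 2.00 and 2.05. MYCTH_71631, at 815.3 ± 13.3 and 275.8 ± 7.11 FPKM, and MYCTH_2312962, at 433.9 ± 21.5 and 154.7 ± 1.70 FPKM, had ratios of 2.96 and 2.80. MYCTH_2295321 and MYCTH_2295324, at 603.0 ± 9.99 and 408.8 ± 11.7 FPKM in the wild type, had ratios of 2.32 and 2.68, whose ranges over library pairs, 2.22 to 2.44 and 2.46 to 2.87, did not overlap. The last 2 pairs were MYCTH_2298252 with MYCTH_75107 (2.46 and 2.45) and MYCTH_77277 with MYCTH_2313766 (3.12 and 2.61). The ranges of MYCTH_77277 and MYCTH_2313766 over library pairs, 3.02 to 3.26 and 2.38 to 2.85, did not overlap either. Over the 8 pairs the larger ratio was 1.001 to 1.195 times the smaller one. Ratios within the set can differ by at most 2-fold by construction, and no test of their likeness was made.

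**Figure D5:**
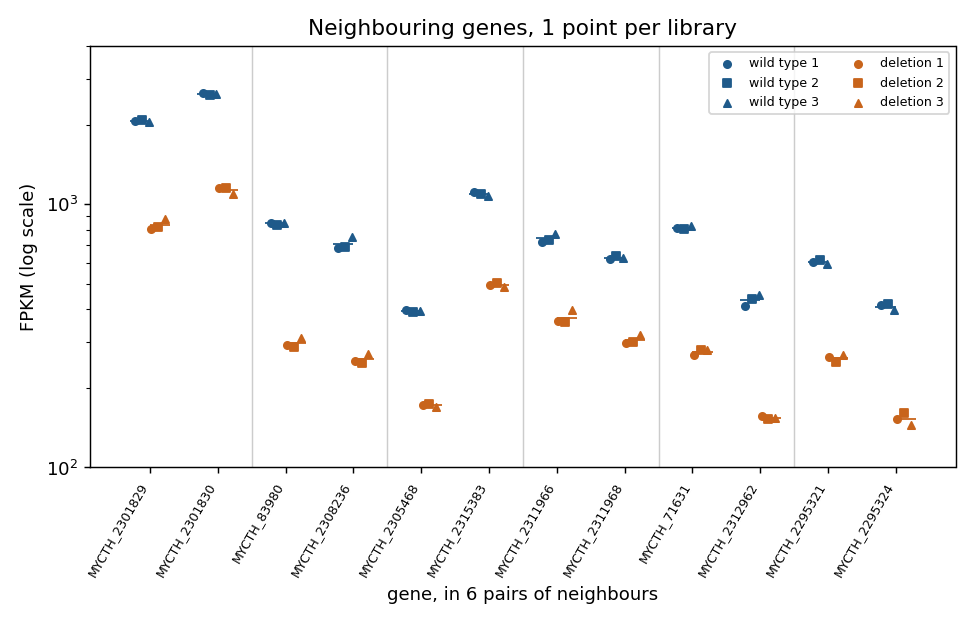
FPKM (log scale) of 6 pairs of neighbouring genes of the set, 1 point per library, with a short line at each mean and grey lines between pairs. The distance between blue (wild type) and orange (deletion) shows the ratio; it differs little for MYCTH_71631 and MYCTH_2312962 (2.96 and 2.80) and more for MYCTH_2295321 and MYCTH_2295324 (2.32 and 2.68).

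Neighbours of the 149 genes went both ways. The 149 genes have 297 neighbouring places, of which 99 (33.3%) hold a listed gene, against 28.5% for all lower listed genes, the 149 included, and 29.5% for all listed genes. Of these 99, 72 (72.7%) were lower in the deletion strain and 27 higher, beside 78.9% lower for the listed neighbours of all lower genes and 57.3% for those of all listed genes. Each pair within the set is counted from both sides, so the 72 include the 16 genes of those pairs, which are lower by the rule. The differences between these shares were not tested. Some neighbours differed sharply. MYCTH_50335 went from 951.6 to 361.7 FPKM without Mtclr-2, whereas MYCTH_2303328 beside it went from 23.7 ± 0.59 to 892.7 ± 51.0 FPKM. MYCTH_2301963 went from 1688 ± 64.0 to 546.7 ± 34.8 FPKM. MYCTH_2133483 beside it went from 294.3 ± 13.6 to 599.5 ± 14.6 FPKM, so the 2 genes stood close together in the deletion strain, the neighbour slightly higher. MYCTH_106819 stood beside MYCTH_2301846, at 89.9 ± 2.32 and 24.5 ± 1.48 FPKM, which was lower too. The 3 neighbours were chosen after their values were seen. For 15 of the 149 genes the annotated ends overlap a neighbouring gene. The labels do not say that counting used strand, so reads in the shared stretch cannot be assigned with certainty to one gene. MYCTH_2311966 and MYCTH_110717, described above, are among these 15.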

How the data were processed

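RNA was sequenced from 3 wild-type and 3 Mtclr-2 deletion libraries. Per the labels' protocols, oligo(dT) beads enriched the mRNA and the libraries came from a NEBNext Ultra RNA kit. The values are FPKM deposited by the authors, 1 column per library. The submitters' processing notes name DESeq2, fastp 0.18.0, RSEM, HISAT2 and StringTie 1.3.1. The sources used here give neither settings nor a genome build, so no coordinates are printed. The labels do not say whether libraries came from separate cultures, so spreads may be technical.

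The members and lists were chosen with earlier results of these data known. limma 3.58.1 (R 4.3.3) was fitted on log2(FPKM + 1), letting the variance follow expression, and was tested on simulated data. Genes had to average 1 FPKM over the 6 libraries, which left 2106, and p-values were adjusted by Benjamini-Hochberg over these. Strain means, ratios, coefficients of variation and gene order (RefSeq, assembly ASM22609v1) were computed in Python 3.11.15 with numpy 2.4.6, pandas 2.3.3 and scipy 1.17.1; figures used matplotlib 3.10.9. Genes were named when they had the 12 highest wild-type means, the 6 largest or 6 smallest ratios, the 3 highest coefficients of variation in either strain, or were in the 6 most abundant neighbouring pairs; others are named as examples chosen after their values were seen. Product groups, protein features and promoter motifs, planned as descriptions, were not analysed here. Alternatives changed the scaling, the pseudocount, the filter, the variance trend, the replicate block, the limits of the rule and the libraries used.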

Additional observations from a re-analysis of the deposited data

How the results depend on the processing

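Leaving out 1 library and choosing again gave 142 to 151 genes. The other values were taken on the same 149 genes without 1 library. Their ratio of summed FPKM stayed at 2.45 to 2.49 and their change in share at -25.4 to -25.2 percentage points. Their median log2 change stayed at -1.28 to -1.25, and all 149 genes still passed as lower. These genes had been chosen on all 6 libraries for ratios of 2 to under 4, which left such values little room to move. Without 1 library 1270 to 1282 listed genes passed as lower and 807 to 838 as higher, of 2090 to 2114 tested. The median-of-ratios factors moved most values, by their construction: the rule then kept 10 genes, none of the 149. For the 149 genes the ratio of sums was 1.22 and the median log2 change -0.26. The listed genes passing as lower were 702 of 2122 tested, in place of 1279 of 2106. Of the named genes, 4 turned to higher, MYCTH_2299739 (0.0015), MYCTH_2311966 (0.014), MYCTH_2306723 (0.011) and MYCTH_2095534 (0.0051); none of these 4 passed the test under that scaling, nor did 4 others that stayed lower. A wild-type limit of 100 FPKM gave 252 genes, and one of 300 FPKM 100. A pseudocount of 5 gave a median log2 change of -1.24. Without the 10 most abundant listed genes, 4 of them in the set, the share changed by -24.7 points; the cause was not tested. The other 400 of 408 values of the named genes kept direction and call. With the replicate number as a block, 1279 of the 2106 genes tested, all 149 of the set among them, passed as lower and 827 as higher, and no call changed. The labels do not say that a replicate number marks a shared batch. Deviations of same-numbered libraries over the tested genes correlated at -0.0046, 0.031 and 0.082, the last, for replicate 3, being the highest of the 9 pairs, and 1 of the 3 wild-type libraries correlated best with its own number. The samples were therefore not treated as paired. At the estimated depths, counting error was smaller than the spread between libraries for the median gene of the set.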
